A study of Homo sapiens with 12 samples.

Results

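The comparison described here is between 2 keratinocyte lines kept under the same inflammatory cytokines, a line carrying a hairpin against IQGAP3 (HaCaT_sh+cyto, 3 libraries) and a control line carrying a scrambled hairpin (HaCaT_ctrl+cyto, 3 libraries). These are 6 of the 12 RNA-seq libraries of the study, which also sequenced both lines without cytokines (HaCaT_sh and HaCaT_ctrl, 3 libraries each). Of the 57370 genes in the count table, 12693 had at least 1 CPM (counts scaled to a library total of 1000000) in at least 3 of the 6 libraries, and these genes were tested. HaCaT is an immortalised human keratinocyte line. Both lines had been transduced with a lentiviral vector that expresses its hairpin under doxycycline, selected with puromycin, and given doxycycline before and throughout the experiment. HaCaT_sh+cyto and HaCaT_ctrl+cyto were then both kept for 72 h with 3 cytokines, TNFα (25 ng/mL), IL-17 (100 ng/mL) and IFNγ (20 ng/mL), and the libraries without cytokines received none of these. Each hairpin was represented by 1 transduced line, so the effect of the hairpin and any other difference between the lines cannot be told apart. The libraries of a group were labelled as biological replicates, and the p-values measure the spread between these libraries.

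IQGAP3 is a scaffold protein that binds actin and the GTPases CDC42 and RAC1 and is found mainly in proliferating epithelial cells. IL-17, TNFα and IFNγ are the T-cell and macrophage cytokines that drive psoriatic inflammation. In keratinocytes IFNγ acts on chemokines, guanylate-binding proteins and antigen presentation, while TNFα and IL-17 act through NF-κB and C/EBP factors on antimicrobial proteins, alarmins and neutrophil chemokines. Keratinocytes exposed to them also change their keratins, from those of the resting basal layer to those of wounds and psoriatic plaques.

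The hairpin is shown because the contrast between the lines rests on it. The oligo cloned into the vector is written 5′ to 3′, with the arms of the hairpin (24 bases each) in capitals and the cloning ends and the loop (7 bases) in lower case.
shRNA_IQGAP3 forward oligo: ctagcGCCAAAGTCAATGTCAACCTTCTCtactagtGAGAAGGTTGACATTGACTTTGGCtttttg
Its first arm matches the IQGAP3 messenger exactly, on the minus strand of chromosome 1 (GRCh37) from 156496314 to 156496337, in the coding part of exon 38 of 38 in 1 annotated transcript and of exon 37 of 38 in another. No other annotated gene held the 24 bases in the sense direction.

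With cytokines, the 6 libraries held 13079055 to 17308021 counts, with 19911 to 20253 genes detected and 1.64% to 2.95% of counts from mitochondrial genes. Correlations of log2 CPM were 0.987 to 0.9949 within HaCaT_sh+cyto, 0.9838 to 0.9915 within HaCaT_ctrl+cyto and 0.9484 to 0.9668 between the groups. The first principal component (71.2% of the variance) separated the lines, and the second (12.6%) set HaCaT_ctrl+cyto replicate 1 and HaCaT_sh+cyto replicate 3 apart from the other libraries. Where a library was left out, sh1 to sh3 stand for the replicates of HaCaT_sh+cyto and ctrl1 to ctrl3 for those of HaCaT_ctrl+cyto. All 16 basal keratinocyte markers passed the expression filter, and their summed level was 15914 to 16160 CPM in HaCaT_sh+cyto and 12439 to 13939 CPM in HaCaT_ctrl+cyto. Of 9 fibroblast markers only COL1A1 was tested, and the summed level of the 9 was 6.89 to 8.40 CPM in HaCaT_sh+cyto and 2.20 to 3.50 CPM in HaCaT_ctrl+cyto. The 7 T-cell markers summed to at most 0.0621 CPM in any of the 6 libraries, and the 8 macrophage and dendritic markers to 0.498 to 0.765 CPM in HaCaT_sh+cyto and 0.249 to 0.369 CPM in HaCaT_ctrl+cyto.

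IQGAP3 itself (ENSG00000183856, GRCh37 chromosome 1, 156495197 to 156542396, minus strand) was lower in the hairpin line, and its level was low in all 6 libraries. It had 1.05, 1.53 and 0.809 CPM in HaCaT_sh+cyto, against 1.78, 3.91 and 3.87 CPM in HaCaT_ctrl+cyto. The groups did not overlap, as in 29.0% of tested genes with lower and 16.6% with higher values in HaCaT_sh+cyto. The fitted difference (log2 fold change -1.44, SE 0.35, adjusted p = 0.0158) was more than 2-fold, but its adjusted p was above the 0.01 set for a call, so IQGAP3 was not called. Without ctrl1, the control library with the lowest value, the log2 fold change was -1.72 and the adjusted p 0.00226, which passed, and without any 1 of the other 5 libraries the adjusted p was 0.0193 to 0.0656. An exact two-sided permutation test of the 3 against 3 CPM values gave p = 0.1, the smallest that this design allows. Without cytokines the order was the other way round: IQGAP3 had 121, 106 and 102 CPM in HaCaT_sh, against 81.5, 76.4 and 84.3 CPM in HaCaT_ctrl, so the libraries labelled HaCaT_sh held more IQGAP3 transcript than the control line and go against their label. The groups did not overlap here either, as in 27.9% of the genes tested without cytokines with higher and 39.3% with lower values in HaCaT_sh. The change of the line difference between the states was called (difference of log2 fold changes -1.95, SE 0.31, adjusted p = 0.000759).

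IQGAP1, the broadly expressed relative, had 429.7, 422 and 386 CPM in HaCaT_sh+cyto, against 493, 599 and 677 CPM in HaCaT_ctrl+cyto (log2 fold change -0.44, SE 0.11, adjusted p = 0.0179) and was not called. IQGAP2, the liver and platelet relative, was at or below 0.153 CPM in every library and was not tested. FOSL1, an AP-1 subunit induced in activated keratinocytes, had 379.8, 406 and 317 CPM in HaCaT_sh+cyto, against 481, 532 and 636 CPM in HaCaT_ctrl+cyto (log2 fold change -0.50, SE 0.12, adjusted p = 0.0129). Its groups did not overlap, as in 29.0% of all tested genes with lower values, and the change was under 2-fold. RND1, which loosens actin stress fibres, had 18.7, 16.4 and 31.6 CPM in HaCaT_sh+cyto, against 3.13, 2.11 and 1.91 CPM in HaCaT_ctrl+cyto (log2 fold change 3.31, SE 0.31, adjusted p = 0.000153). RHOV, a CDC42-like atypical GTPase, had 27.5, 25.9 and 46.3 CPM in HaCaT_sh+cyto, against 12.5, 10.4 and 9.48 CPM in HaCaT_ctrl+cyto (log2 fold change 1.71, SE 0.24, adjusted p = 0.00122) and was not called without ctrl2 (adjusted p = 0.0102). RHOBTB3, an atypical ATPase, had 167, 144 and 226 CPM in HaCaT_sh+cyto, against 109.6, 86.9 and 84.8 CPM in HaCaT_ctrl+cyto (log2 fold change 1.02, SE 0.18, adjusted p = 0.00357) and was not called without sh3, ctrl2 or ctrl3 (log2 fold change 0.79 to 0.95, adjusted p 0.00557 to 0.0229). RND1, RHOV and RHOBTB3 were called higher, and in each the highest library was sh3.

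A gene was called when its adjusted p was below 0.01 and its fold change at least 2. In HaCaT_sh+cyto against HaCaT_ctrl+cyto, 524 genes were called (4.13% of those tested), 317 of them higher (2.50%) and 207 lower (1.63%). The call held without each library in turn for 172 of the higher (1.36% of those tested) and 104 of the lower genes (0.819%). The median log2 fold change over all tested genes was -0.0049, with quartiles at -0.25 and 0.22, and these values stand as the background for every gene group described here. At an unadjusted p below 0.05 in edgeR's quasi-likelihood test, 2534 of the 12693 tested genes were higher and 2667 lower. These shares are the background for the unadjusted counts of each list. Leaving out 1 library moved the numbers of called genes, to 196 genes higher without ctrl2, and to 122 genes lower without ctrl2 and 131 without sh1. Because the RNA came from whole cultures, fewer cells with a transcript and less transcript per cell cannot be told apart.

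Among protein-coding genes with at least 5 CPM in the higher group, a call that held without each library in turn and groups that did not overlap, the 12 largest increases joined secreted and cell-surface proteins, keratins and a chromatin organiser. AMTN (ENSG00000187689, chromosome 4, 71384286 to 71398460, plus strand), which encodes amelotin, a secreted protein of the tooth-attaching epithelium, had 229, 223 and 198 CPM in HaCaT_sh+cyto, against 4.05, 3.91 and 4.97 CPM in HaCaT_ctrl+cyto (log2 fold change 5.72, SE 0.12, adjusted p = 9.75e-09). AMTN, like the others of the 12, was chosen for groups that did not overlap, so their separation is not a result. TNFRSF10D, a decoy receptor for the death ligand TRAIL, had 9.80, 9.56 and 9.34 CPM in HaCaT_sh+cyto, against 0, 0 and 0.0578 CPM in HaCaT_ctrl+cyto. Only 1 count was found over the 3 control libraries against 443 in HaCaT_sh+cyto, a ratio of 476 with a counting interval of 84.9 to 18828 (adjusted p = 4.78e-06). The fitted log2 fold change of such a gene depends on that single count, and it was 8.49 with all libraries and 10.27 without ctrl3. GSTM3, a glutathione transferase of the mu class, had 25.4, 22.2 and 34.9 CPM in HaCaT_sh+cyto, against 0.184, 0.0621 and 0 CPM in HaCaT_ctrl+cyto (log2 fold change 8.36, SE 0.42, adjusted p = 7.35e-06), with a log2 fold change of 9.59 without ctrl1. In TNFRSF10D and GSTM3 the control line was at or near 0 in all 3 libraries. RGL3, a guanine nucleotide exchange factor of the Ral pathway, had 6.59, 7.03 and 8.34 CPM in HaCaT_sh+cyto, against 0, 0.124 and 0.0578 CPM in HaCaT_ctrl+cyto (log2 fold change 6.83, SE 0.40, adjusted p = 1.66e-05), with 339 counts against 3, a ratio of 121 with a counting interval of 41.2 to 591, and a log2 fold change of 7.66 without ctrl2. C1QL2, a secreted protein with a C1q domain, had 8.64, 6.73 and 7.72 CPM in HaCaT_sh+cyto, against 0, 0.186 and 0.173 CPM in HaCaT_ctrl+cyto (log2 fold change 5.99, SE 0.39, adjusted p = 2.41e-05).

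The other increases of the 12 started from measurable control levels or from a few counts. CD5, a scavenger receptor known from lymphocytes, had 12.1, 12.5 and 11.2 CPM in HaCaT_sh+cyto, against 0.491, 0.870 and 0.289 CPM in HaCaT_ctrl+cyto (log2 fold change 4.52, SE 0.26, adjusted p = 1.61e-05), while the T-cell markers given above were at or near 0. IL4I1, a secreted amino acid oxidase that limits T cells, had 7.94, 6.80 and 12.2 CPM in HaCaT_sh+cyto, against 0.491, 0.186 and 0.636 CPM in HaCaT_ctrl+cyto (log2 fold change 4.41, SE 0.38, adjusted p = 0.00011). SATB1, which organises chromatin loops and is active in basal keratinocytes, had 21.5, 17.8 and 22.7 CPM in HaCaT_sh+cyto, against 1.60, 0.994 and 1.85 CPM in HaCaT_ctrl+cyto (log2 fold change 3.87, SE 0.22, adjusted p = 1.61e-05). FAM171A1, a membrane protein linked to cell shape, had 8.29, 8.26 and 8.96 CPM in HaCaT_sh+cyto, against 0.921, 0.621 and 0.347 CPM in HaCaT_ctrl+cyto (log2 fold change 3.83, SE 0.27, adjusted p = 3.16e-05). The remaining genes of the group were the keratins KRT16, KRT33B and KRT34, described with their family. Of the 12, 9 were also called higher without cytokines, in the libraries labelled HaCaT_sh. The other 3, TNFRSF10D, KRT33B and KRT34, did not pass the expression filter there.

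**Figure D1:**
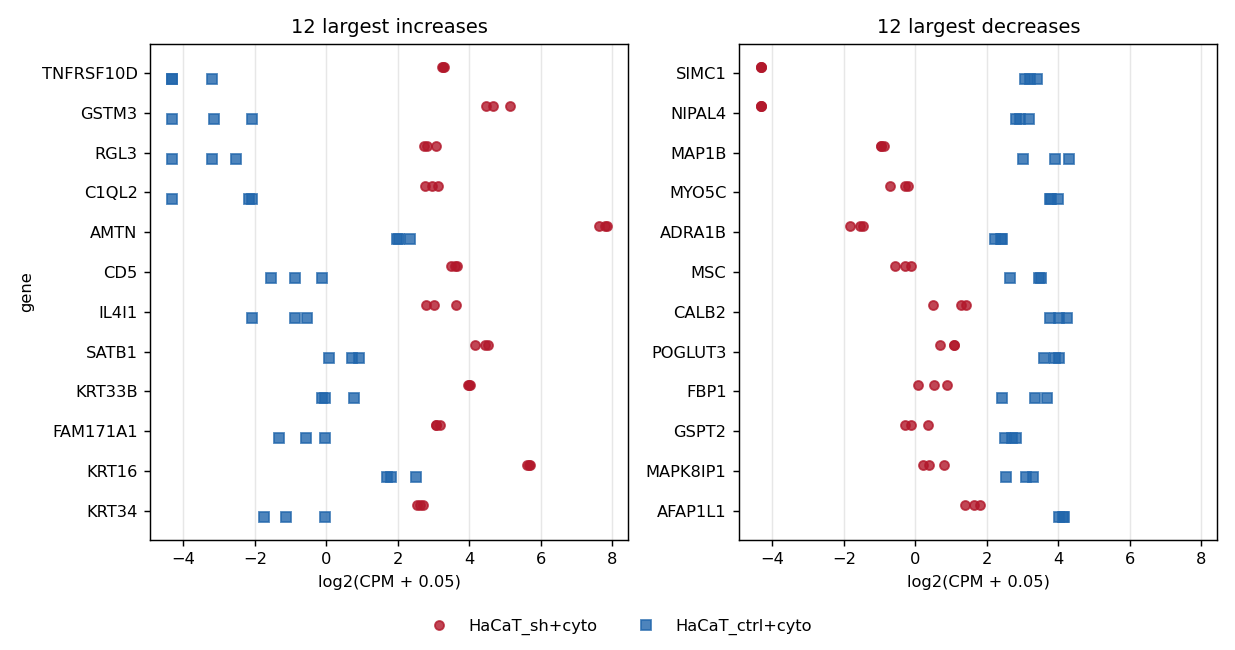
Levels of the 12 protein-coding genes with the largest increases (left) and decreases (right), as log2(CPM + 0.05), with 1 point per library (circles, HaCaT_sh+cyto; squares, HaCaT_ctrl+cyto), among genes chosen for a call that held without each library and for groups that do not overlap. SIMC1 and NIPAL4 sit at the 0-count limit in all 3 libraries of HaCaT_sh+cyto.

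The 12 largest decreases under the same conditions included genes with no count in the hairpin line. SIMC1 (ENSG00000170085, chromosome 5, 175665370 to 175772994, plus strand), a SUMO-binding protein, had 0 counts in all 3 libraries of HaCaT_sh+cyto and 8.35, 9.13 and 10.6 CPM in HaCaT_ctrl+cyto, at least 145-fold lower if the group is set to a floor of 3 counts in all (adjusted p = 2.64e-05). NIPAL4 (chromosome 5, 156887221 to 156901730, plus strand), a magnesium transporter of the epidermal lipid barrier whose loss causes congenital ichthyosis, had 0 counts in HaCaT_sh+cyto and 7.0, 8.95 and 7.51 CPM in HaCaT_ctrl+cyto, at least 120-fold lower (adjusted p = 3.16e-05). Both genes were also called lower without cytokines, where SIMC1 again had no count in the 3 libraries labelled HaCaT_sh. The next largest decreases were in proteins of the cytoskeleton and a receptor. MAP1B, a microtubule-associated protein, had 0.467, 0.459 and 0.498 CPM in HaCaT_sh+cyto, against 8.05, 15.0 and 19.4 CPM in HaCaT_ctrl+cyto (log2 fold change -4.79, SE 0.40, adjusted p = 8.83e-05). MYO5C, a class V myosin of epithelial secretory cells, had 0.817, 0.765 and 0.560 CPM in HaCaT_sh+cyto, against 13.7, 13.7 and 15.7 CPM in HaCaT_ctrl+cyto (log2 fold change -4.24, SE 0.20, adjusted p = 4.78e-06). ADRA1B, an alpha-1 adrenergic receptor, had 0.292, 0.229 and 0.311 CPM in HaCaT_sh+cyto, against 5.16, 5.34 and 4.62 CPM in HaCaT_ctrl+cyto (log2 fold change -4.05, SE 0.26, adjusted p = 2.38e-05).

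Smaller decreases of the same group covered regulators and enzymes. MSC, a basic helix-loop-helix repressor, had 0.875, 0.765 and 0.622 CPM in HaCaT_sh+cyto, against 6.20, 10.9 and 11.3 CPM in HaCaT_ctrl+cyto (log2 fold change -3.55, SE 0.30, adjusted p = 9.03e-05), and CALB2, the calcium buffer calretinin, had 2.63, 2.37 and 1.37 CPM in HaCaT_sh+cyto, against 13.5, 16.2 and 18.7 CPM in HaCaT_ctrl+cyto (log2 fold change -2.85, SE 0.22, adjusted p = 6.11e-05). POGLUT3, which attaches glucose to EGF repeats, had 1.58, 2.06 and 2.05 CPM in HaCaT_sh+cyto, against 12.1, 16.2 and 15.0 CPM in HaCaT_ctrl+cyto (log2 fold change -2.85, SE 0.18, adjusted p = 2.38e-05). FBP1, a gluconeogenic phosphatase, had 1.81, 1.38 and 0.996 CPM in HaCaT_sh+cyto, against 5.34, 10.1 and 12.8 CPM in HaCaT_ctrl+cyto (log2 fold change -2.66, SE 0.35, adjusted p = 0.000934). GSPT2, a translation termination factor, MAPK8IP1, a scaffold of the JNK cascade, and AFAP1L1, an actin-binding adaptor, were lower by log2 fold changes of -2.63, -2.51 and -2.43 (adjusted p = 0.000103, 0.000259 and 1.84e-05). 

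Outside protein-coding genes and under the same conditions, the largest increases were at NEFL, annotated here as a processed transcript of the neurofilament light chain locus, with 12.4, 14.2 and 6.04 CPM in HaCaT_sh+cyto, against 0.246, 0.373 and 0.404 CPM in HaCaT_ctrl+cyto (log2 fold change 5.02, SE 0.41, adjusted p = 7.51e-05), and at the pseudogene FKBP9P1, with 18.9, 17.6 and 24.7 CPM in HaCaT_sh+cyto, against 2.76, 2.17 and 2.83 CPM in HaCaT_ctrl+cyto (log2 fold change 3.05, SE 0.20, adjusted p = 2.41e-05). The processed transcript AC124789.1 and the antisense transcript RP11-215G15.5 followed with log2 fold changes of 2.80 and 2.55 (adjusted p = 0.00017 and 3.05e-05). Reads of FKBP9P1 may be shared with its parent gene. The largest decreases were at MSC-AS1, with 0.584, 0.917 and 0.685 CPM in HaCaT_sh+cyto, against 8.11, 12.6 and 10.6 CPM in HaCaT_ctrl+cyto (log2 fold change -3.77, SE 0.25, adjusted p = 2.64e-05), TP73-AS1 (log2 fold change -2.98, SE 0.22, adjusted p = 4.87e-05), FBXL19-AS1 (log2 fold change -1.65, SE 0.20, adjusted p = 0.000702) and PSMG3-AS1 (log2 fold change -1.34, SE 0.18, adjusted p = 0.000963). Whether strand was used in counting is not given in the sources used here, so reads of these antisense genes and of their partners, MSC among them, cannot be told apart.

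Several keratins and proteins of the cornified envelope, the cross-linked shell of dead surface cells, stood higher in the hairpin line. Of 23 tested differentiation and cornified-envelope genes, 8 were called, all higher (34.8%), with a median log2 fold change of 0.61, and 5 of the 8 kept the call without each library in turn. The count was 5 without sh1 and 5 without ctrl2. IVL, involucrin, an early envelope protein, had 14.3, 13.5 and 14.2 CPM in HaCaT_sh+cyto, against 5.77, 3.85 and 4.68 CPM in HaCaT_ctrl+cyto (log2 fold change 1.63, SE 0.17, adjusted p = 0.000295). SPRR1A and SPRR3, small proline-rich proteins cross-linked into the envelope, had 14.1, 14.2 and 17.7 CPM in HaCaT_sh+cyto, against 3.69, 3.04 and 4.10 CPM in HaCaT_ctrl+cyto and 6.59, 7.42 and 5.60 CPM in HaCaT_sh+cyto, against 1.84, 0.994 and 1.73 CPM in HaCaT_ctrl+cyto (log2 fold change 2.16, SE 0.18, adjusted p = 8.77e-05 for SPRR1A and log2 fold change 2.16, SE 0.24, adjusted p = 0.000432 for SPRR3). SBSN, suprabasin, had 19.6, 19.4 and 15.6 CPM in HaCaT_sh+cyto, against 6.57, 4.78 and 4.80 CPM in HaCaT_ctrl+cyto (log2 fold change 1.83, SE 0.17, adjusted p = 0.000136). These 4 genes were chosen for groups that did not overlap and a call that held without each library, so neither is a result.

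The remaining called members of the group were PADI1, a deiminase of keratins and filaggrin (log2 fold change 1.75), CDSN, corneodesmosin (1.76), KRT13, a mucosal keratin (1.12), and SPRR2G (1.97), and these were chosen after their values were seen. CDSN was not called without sh1, sh2, ctrl2 or ctrl3 (adjusted p 0.0104 to 0.0234), KRT13 was not called without sh1, sh3, ctrl2 or ctrl3 (log2 fold change 0.81 to 1.22, adjusted p 0.00505 to 0.0302) and SPRR2G was not called without any 1 of the 6 libraries (adjusted p 0.0106 to 0.0423). FLG, filaggrin, the main protein of the granular layer, had a log2 fold change of -0.64 (adjusted p = 0.0793), and KRT10, the spinous-layer keratin, one of 0.87 (0.000515), and neither was called. Members of the SPRR2 subfamily are near-identical, and their counts are uncertain where reads were shared.

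Of 7 tested keratins of wounds and hyperproliferation, 3 were called higher and 1, the hair keratin KRT81, lower. KRT16 (ENSG00000186832, chromosome 17, 39766030 to 39772151, minus strand), which marks psoriatic and wounded epidermis, had 50.5, 48.6 and 51.4 CPM in HaCaT_sh+cyto, against 5.59, 3.17 and 3.47 CPM in HaCaT_ctrl+cyto (log2 fold change 3.70, SE 0.18, adjusted p = 7.35e-06). KRT17, another keratin of activated keratinocytes, had 329, 309 and 401 CPM in HaCaT_sh+cyto, against 141, 118 and 69.0 CPM in HaCaT_ctrl+cyto (log2 fold change 1.74, SE 0.23, adjusted p = 0.000936), and KRT6B had 7.12, 6.88 and 6.35 CPM in HaCaT_sh+cyto, against 3.32, 1.74 and 1.27 CPM in HaCaT_ctrl+cyto (log2 fold change 1.76, SE 0.29, adjusted p = 0.00299) and was not called without sh1 or ctrl2 (adjusted p 0.0132 to 0.0206). KRT81, a hair-shaft type II keratin, was lower, with 44.9, 38.9 and 69.7 CPM in HaCaT_sh+cyto, against 109, 113 and 111 CPM in HaCaT_ctrl+cyto (log2 fold change -1.03, SE 0.19, adjusted p = 0.00476), and was not called without sh1, sh2, ctrl2 or ctrl3 (log2 fold change -1.03 to -0.86, adjusted p 0.00907 to 0.022). The related KRT6A had a log2 fold change of 0.53 and was not called, and reads of KRT6 and KRT81/KRT86 pairs may have been shared between near-identical genes.

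The hair-shaft type I keratin KRT33B had 15.6, 16.3 and 15.9 CPM in HaCaT_sh+cyto, against 1.66, 0.870 and 0.924 CPM in HaCaT_ctrl+cyto (log2 fold change 3.86, SE 0.22, adjusted p = 1.61e-05), and its neighbour KRT34 had 6.48, 6.04 and 5.73 CPM in HaCaT_sh+cyto, against 0.921, 0.249 and 0.404 CPM in HaCaT_ctrl+cyto (log2 fold change 3.60, SE 0.33, adjusted p = 0.000136), with a log2 fold change of 4.26 without ctrl1. Neither had a count in any of the 6 libraries without cytokines. KRT20, a simple epithelial keratin, had 2.28, 2.14 and 2.74 CPM in HaCaT_sh+cyto, against 0.0614, 0.311 and 0.0578 CPM in HaCaT_ctrl+cyto (log2 fold change 4.09, SE 0.45, adjusted p = 0.000387), with 5.21 without ctrl2, and the other 4 simple epithelial keratins tested were higher at an unadjusted p below 0.05 but under 2-fold. The summed level of the 5 was 6347 to 6646 CPM in HaCaT_sh+cyto and 3942 to 4594 CPM in HaCaT_ctrl+cyto. Of the 16 basal markers, 3 were called, all higher. KRT5, the type II keratin of the basal layer, had 129, 139 and 145 CPM in HaCaT_sh+cyto, against 64.6, 73.4 and 72.2 CPM in HaCaT_ctrl+cyto (log2 fold change 1.05, SE 0.084, adjusted p = 7.21e-05) and was not called without sh3 (log2 fold change 0.99). KRT15, a keratin of quiescent basal and follicle cells, had 827, 706 and 1029 CPM in HaCaT_sh+cyto, against 579, 379 and 325 CPM in HaCaT_ctrl+cyto (log2 fold change 1.08, SE 0.22, adjusted p = 0.0074) and was not called without sh1, sh3, ctrl2 or ctrl3 (log2 fold change 0.90 to 1.11, adjusted p 0.0209 to 0.0398), and the third was KRT17.

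Kallikreins, the serine proteases that cut corneodesmosomes during shedding, were higher in part: of 14 tested kallikreins and inhibitors 6 were called higher and 1 lower, with a median log2 fold change of 0.51. KLK5, the trypsin-like initiator of the cascade, had 1535, 1462 and 1712 CPM in HaCaT_sh+cyto, against 719, 679 and 777 CPM in HaCaT_ctrl+cyto (log2 fold change 1.19, SE 0.11, adjusted p = 0.000128). KLK7, its chymotrypsin-like target, had 263, 235 and 278 CPM in HaCaT_sh+cyto, against 111, 104 and 132 CPM in HaCaT_ctrl+cyto (log2 fold change 1.24, SE 0.12, adjusted p = 0.000155). KLK6 had 99.4, 95.1 and 98.5 CPM in HaCaT_sh+cyto, against 47.8, 23.7 and 24.2 CPM in HaCaT_ctrl+cyto (log2 fold change 1.69, SE 0.24, adjusted p = 0.0014), and KLK13 had 3.44, 2.83 and 4.42 CPM in HaCaT_sh+cyto, against 0.553, 0.0621 and 0.693 CPM in HaCaT_ctrl+cyto (log2 fold change 3.08, SE 0.45, adjusted p = 0.00159). KLK14 and KLK11 were called with log2 fold changes of 1.57 and 1.11, but KLK14 was not called without sh1, sh3, ctrl2 or ctrl3 (adjusted p 0.0102 to 0.0131) and KLK11 was not called without sh1, sh2, sh3, ctrl2 or ctrl3 (log2 fold change 0.94 to 1.21, adjusted p 0.0106 to 0.03). PI3, the elastase inhibitor elafin, was lower (log2 fold change -2.16, SE 0.35, adjusted p = 0.00268), was not called without sh1 or sh3 (adjusted p 0.0111 to 0.0129), and had a log2 fold change of -1.57 without ctrl1. These last 3 were named after their values were seen. The kallikrein genes are neighbours on chromosome 19. Of 16 kallikreins and inhibitors tested without cytokines, 5 were called higher and 3 lower in HaCaT_sh (median log2 fold change 0.67).

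Barrier lipid genes were split, with 2 of 18 tested members called higher and 1, NIPAL4, lower, beside 4.13% of all genes called, and a median log2 fold change of -0.14. SULT2B1, which makes cholesterol sulfate, had 10.9, 11.9 and 9.09 CPM in HaCaT_sh+cyto, against 5.53, 3.73 and 4.80 CPM in HaCaT_ctrl+cyto (log2 fold change 1.25, SE 0.18, adjusted p = 0.00153). CERS4, a ceramide synthase, had 1.34, 2.14 and 1.31 CPM in HaCaT_sh+cyto, against 0.676, 0.435 and 0.578 CPM in HaCaT_ctrl+cyto (log2 fold change 1.54, SE 0.33, adjusted p = 0.00843) and was not called without any 1 of the 6 libraries (adjusted p 0.0108 to 0.0426). Among 10 clade B serpins, intracellular protease inhibitors, only SERPINB3 was called. SERPINB3, the squamous cell carcinoma antigen raised in psoriatic skin, was lower, with 63.7, 66.1 and 59.9 CPM in HaCaT_sh+cyto, against 226, 187 and 238 CPM in HaCaT_ctrl+cyto (log2 fold change -1.70, SE 0.11, adjusted p = 1.93e-05). Its near-identical neighbour SERPINB4 had a log2 fold change of -0.79 (adjusted p = 0.0475), and reads may have been shared between them.

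**Figure D2:**
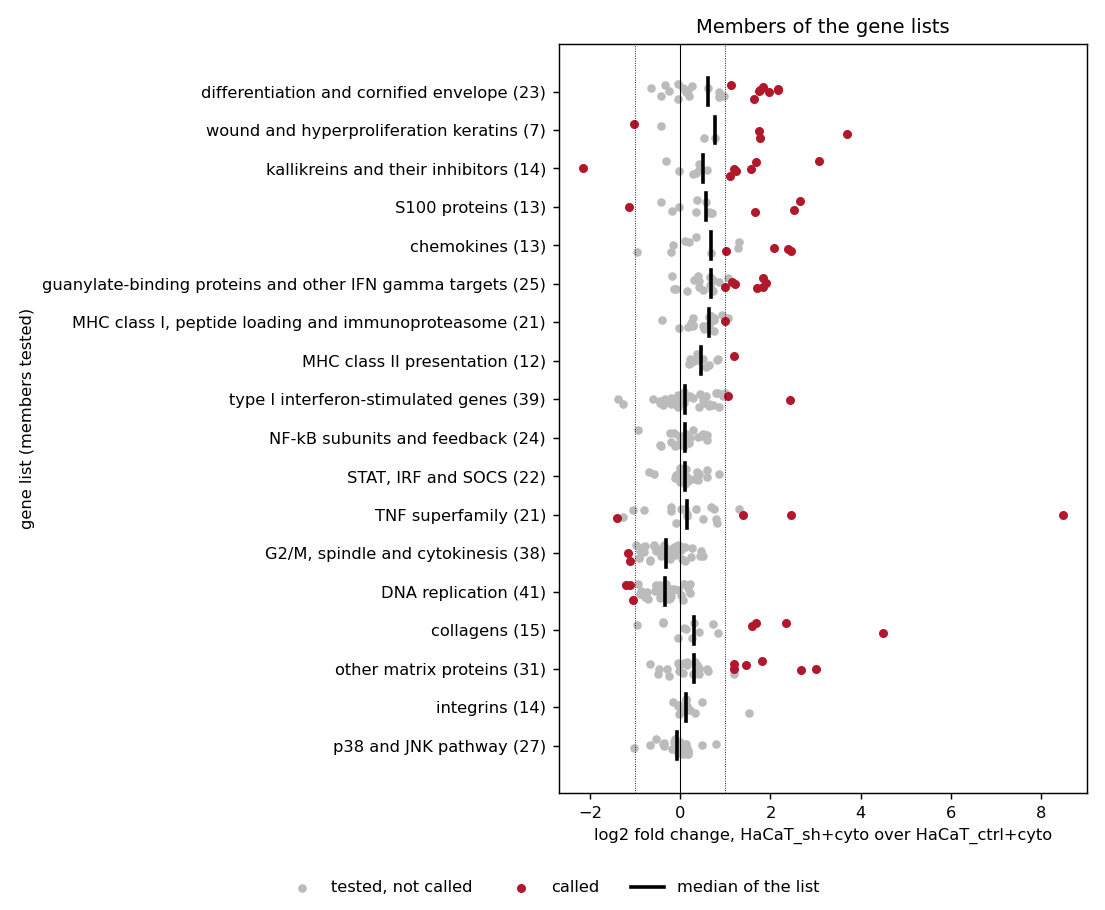
Log2 fold change of HaCaT_sh+cyto over HaCaT_ctrl+cyto for every tested member of 18 gene lists, with 1 point per gene (red, called; grey, not called), a black bar at the median of each list and dotted lines at -1 and 1. Differentiation, kallikrein, chemokine and interferon-γ target lists lie to the right of 0, and DNA replication and G2/M lists to the left, with few of their members called.

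Of the 10 tested antimicrobial proteins and alarmins, 3 were called, all S100 genes and all higher. S100A7, psoriasin, had 4.84, 4.82 and 4.54 CPM in HaCaT_sh+cyto, against 0.860, 0.373 and 1.10 CPM in HaCaT_ctrl+cyto (log2 fold change 2.66, SE 0.30, adjusted p = 0.00044). S100A9, a subunit of calprotectin, had 7.35, 6.19 and 8.90 CPM in HaCaT_sh+cyto, against 2.46, 0.870 and 0.809 CPM in HaCaT_ctrl+cyto (log2 fold change 2.52, SE 0.37, adjusted p = 0.0015). It was not called without ctrl2 (adjusted p = 0.0109), with 3.24 without ctrl1. S100A8, the other subunit, had 1.98, 2.06 and 1.99 CPM in HaCaT_sh+cyto, against 1.04, 0.311 and 0.636 CPM in HaCaT_ctrl+cyto (log2 fold change 1.66, SE 0.36, adjusted p = 0.00893) and was not called without sh1, sh2, sh3, ctrl2 or ctrl3 (adjusted p 0.0211 to 0.0312). All 3 were at low levels, and ctrl1 held the highest control value of S100A8 and S100A9. S100A4, a metastasis-associated family member, was lower, with 2.04, 2.45 and 1.43 CPM in HaCaT_sh+cyto, against 4.42, 5.40 and 3.81 CPM in HaCaT_ctrl+cyto (log2 fold change -1.13, SE 0.23, adjusted p = 0.00734), and was not called without any 1 of the 6 libraries (log2 fold change -1.29 to -0.96, adjusted p 0.0108 to 0.038). Over the 13 tested S100 genes the median log2 fold change was 0.58. Of 11 tested mucosal defence genes, PIGR, the transporter of polymeric antibodies, and CEACAM7 were called higher, with 2.39, 1.61 and 3.55 CPM in HaCaT_sh+cyto, against 0.614, 0.994 and 0.867 CPM in HaCaT_ctrl+cyto and 4.79, 4.74 and 9.84 CPM in HaCaT_sh+cyto, against 2.40, 0.373 and 1.33 CPM in HaCaT_ctrl+cyto. PIGR (log2 fold change 1.70, SE 0.35, adjusted p = 0.00774) was not called without sh1, sh3, ctrl1, ctrl2 or ctrl3 (adjusted p 0.0169 to 0.0284), and CEACAM7 (log2 fold change 2.32, SE 0.50, adjusted p = 0.00909) was not called without sh1, sh2, sh3, ctrl2 or ctrl3 (adjusted p 0.0108 to 0.0329), with a log2 fold change of 2.99 without ctrl1.

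The chemokines that bind CXCR3 on activated T cells were among the clearest group differences. CXCL9 had 47.4, 55.7 and 57.2 CPM in HaCaT_sh+cyto, against 9.77, 13.4 and 17 CPM in HaCaT_ctrl+cyto (log2 fold change 2.08, SE 0.17, adjusted p = 8.94e-05). CXCL10 had 67.7, 64.0 and 146 CPM in HaCaT_sh+cyto, against 17.4, 16.6 and 22.1 CPM in HaCaT_ctrl+cyto (log2 fold change 2.40, SE 0.31, adjusted p = 0.000944), and CXCL11 had 20.1, 17.9 and 38.8 CPM in HaCaT_sh+cyto, against 5.16, 4.35 and 5.43 CPM in HaCaT_ctrl+cyto (log2 fold change 2.45, SE 0.30, adjusted p = 0.000734). In all 3 genes every library of HaCaT_sh+cyto was above every control library, as in 16.6% of all tested genes, and sh3 was highest. Without cytokines CXCL9 and CXCL10 had no counts in any library, and CXCL11 at most 0.358 CPM. CCL22, a ligand of CCR4, had 21.8, 21.6 and 28.4 CPM in HaCaT_sh+cyto, against 8.17, 12.9 and 16.4 CPM in HaCaT_ctrl+cyto (log2 fold change 1.02, SE 0.22, adjusted p = 0.00988) and was not called without sh1, sh2, sh3, ctrl1 or ctrl2 (log2 fold change 0.80 to 1.10, adjusted p 0.00971 to 0.0427). Over the 13 tested chemokines, 4 were called higher (30.8%, against 2.50% of all genes), and the median log2 fold change was 0.67. The neutrophil chemokines did not pass: CXCL8 had a log2 fold change of 0.34 (adjusted p = 0.488), CXCL1 of -0.20 (0.731), CXCL5 of -0.16 (0.899), CXCL6 of 1.31 (0.0727) and CXCL3 of -0.95 (0.202). The groups overlapped in at least CXCL1, CXCL3, CXCL5 and CXCL6.

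The promoters of the CXCR3 ligands are shown because these neighbouring genes on chromosome 4 were higher together. They are RefSeq sequence (GRCh38.p14), minus strand, from 250 bases before to 50 after the start, with matches to 3 motifs searched on both strands in capitals: GAAA repeated after any 2 bases (paired half-sites bound by interferon-activated factors), GGGA and TTCC around any 2 bases (a κB site) and TTCNNNGAA (a STAT site).
CXCL9 (chr4:76007460-76007759): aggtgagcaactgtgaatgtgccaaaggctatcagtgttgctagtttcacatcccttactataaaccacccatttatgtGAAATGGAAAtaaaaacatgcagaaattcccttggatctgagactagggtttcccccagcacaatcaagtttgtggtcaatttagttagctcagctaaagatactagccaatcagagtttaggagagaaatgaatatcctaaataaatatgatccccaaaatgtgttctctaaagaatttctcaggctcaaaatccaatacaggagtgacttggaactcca
CXCL10 (chr4:76023448-76023747): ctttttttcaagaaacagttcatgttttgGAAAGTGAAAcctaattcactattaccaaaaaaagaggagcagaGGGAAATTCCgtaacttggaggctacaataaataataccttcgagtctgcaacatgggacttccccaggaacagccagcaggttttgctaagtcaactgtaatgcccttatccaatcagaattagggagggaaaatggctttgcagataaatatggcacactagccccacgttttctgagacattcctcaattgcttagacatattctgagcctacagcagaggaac
CXCL11 (chr4:76036021-76036320): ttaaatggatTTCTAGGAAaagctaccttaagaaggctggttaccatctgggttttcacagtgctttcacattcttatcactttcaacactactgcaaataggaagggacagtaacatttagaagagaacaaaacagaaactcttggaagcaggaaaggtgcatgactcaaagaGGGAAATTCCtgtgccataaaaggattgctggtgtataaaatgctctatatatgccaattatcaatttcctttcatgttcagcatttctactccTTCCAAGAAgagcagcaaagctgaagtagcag
CXCL9 held GAAATGGAAA 171 bases before its start. CXCL10 held GAAAGTGAAA 221 bases and GGGAAATTCC 177 bases before its start, and CXCL11 held GGGAAATTCC 76 bases and TTCTAGGAA 240 bases before its start and TTCCAAGAA 18 bases after it. Among 35116 promoters of the same length, 3.57% held the paired GAAA, 1.61% the κB site and 7.66% TTCNNNGAA. These matches are letters only, and binding was not measured.

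Further targets of IFNγ were higher as well. Of 25 tested guanylate-binding proteins and other IFNγ targets, 7 were called, all higher (28.0%), and 21 were higher at an unadjusted p below 0.05, with a median log2 fold change of 0.69. The count called was 4 without ctrl2. Without cytokines, 6 of 24 tested members were called higher in the libraries labelled HaCaT_sh and 0 lower, with a median of 0.55. The change of the line difference between states was called more positive for 2 members and more negative for 1. IDO1 (GRCh37 chromosome 8, 39759794 to 39786309, plus strand), which degrades tryptophan, had 540.1, 475 and 762 CPM in HaCaT_sh+cyto, against 197, 158 and 173 CPM in HaCaT_ctrl+cyto (log2 fold change 1.83, SE 0.18, adjusted p = 0.000233). APOL3, an interferon-induced apolipoprotein L, had 15.2, 14.6 and 23.3 CPM in HaCaT_sh+cyto, against 5.28, 5.90 and 6.07 CPM in HaCaT_ctrl+cyto (log2 fold change 1.71, SE 0.21, adjusted p = 0.000658), and XAF1, a pro-apoptotic interferon target, had 44.5, 40.1 and 49.0 CPM in HaCaT_sh+cyto, against 18.7, 19.4 and 25.8 CPM in HaCaT_ctrl+cyto (log2 fold change 1.15, SE 0.14, adjusted p = 0.000742). The highest library was sh3 in all 3 genes, which had been chosen for groups that did not overlap.

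The other called members, named after their values were seen, were UBD, a ubiquitin-like modifier (log2 fold change 1.84), GBP4 (1.90), GBP2 (1.22) and APOL1 (1.00), of which GBP2 and GBP4 encode guanylate-binding GTPases. UBD was not called without sh1 or ctrl2 (adjusted p 0.0125 to 0.0155), GBP4 was not called without ctrl2 or ctrl3 (adjusted p 0.0171 to 0.0233), GBP2 was not called without sh3, ctrl2 or ctrl3 (log2 fold change 0.85 to 1.22, adjusted p 0.00338 to 0.0319) and APOL1 was not called without sh3 or ctrl1 (log2 fold change 0.83 to 0.94). Of 39 tested type I interferon-stimulated genes, 2 were called higher (5.13%), and the median of 0.10 was close to that of all genes. At an unadjusted p below 0.05, 16 of the 39 were higher and 5 lower. OASL, a sensor-pathway cofactor, had 60.9, 60.1 and 92.0 CPM in HaCaT_sh+cyto, against 17.4, 11.7 and 12.5 CPM in HaCaT_ctrl+cyto (log2 fold change 2.44, SE 0.22, adjusted p = 0.000119), and HERC6, an interferon-induced HECT-family protein, had 13.7, 13.5 and 15.6 CPM in HaCaT_sh+cyto, against 7.0, 7.21 and 7.45 CPM in HaCaT_ctrl+cyto (log2 fold change 1.06, SE 0.13, adjusted p = 0.000742) and was not called without sh3 (log2 fold change 0.97). Of 22 tested STAT, IRF and SOCS genes, edgeR called 0, as did DESeq2 and limma-voom, while 5 were higher and 2 lower at an unadjusted p below 0.05.

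Most antigen presentation genes differed by less than 2-fold. Of 21 tested MHC class I and peptide-loading genes, 17 were higher at an unadjusted p below 0.05 and the median log2 fold change was 0.63, yet TAP1, a subunit of the peptide transporter, was the only call. PSMB10, a subunit of the immunoproteasome, had a log2 fold change of 1.06 (adjusted p = 0.0235) and did not pass. TAP1 had 727, 672 and 950.2 CPM in HaCaT_sh+cyto, against 458, 429 and 357 CPM in HaCaT_ctrl+cyto (log2 fold change 1.00, SE 0.15, adjusted p = 0.00196) and was not called without sh3, ctrl2 or ctrl3 (log2 fold change 0.81 to 1.01, adjusted p 0.00297 to 0.0133). HLA-B and HLA-C had log2 fold changes of 0.68 and 0.63 (adjusted p = 0.00118 and 0.000773), and reads may have been shared between these similar genes. On the class II side, LGMN, a lysosomal protease that trims antigens, was called, with 136, 135 and 152 CPM in HaCaT_sh+cyto, against 61.4, 61.7 and 72.4 CPM in HaCaT_ctrl+cyto (log2 fold change 1.19, SE 0.099, adjusted p = 8.83e-05), and the median over 12 tested genes was 0.46. HLA-DRA had a log2 fold change of 0.21 (adjusted p = 0.472). Without cytokines the class II list had a median of -0.84 and 4 of 12 were called lower, and 6 of 12 were called higher in the test of the change between states (HLA-DRA, HLA-DRB1, HLA-DRB5, HLA-DQA1, HLA-DMA and CTSS).

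Cytokines and their receptors gave single genes rather than families. IL36RN, the antagonist of the IL-36 receptor whose loss causes generalised pustular psoriasis, had 63.7, 65.1 and 35.2 CPM in HaCaT_sh+cyto, against 17.6, 14.5 and 12.1 CPM in HaCaT_ctrl+cyto (log2 fold change 1.97, SE 0.22, adjusted p = 0.000464) and was the only one of 14 tested IL-1 and IL-36 family genes to be called. IL1A and IL1B had log2 fold changes of -0.03 and -0.08 (adjusted p = 0.897 and 0.8) with cytokines, whereas without cytokines they were called higher in the libraries labelled HaCaT_sh (2.31 and 2.39). IL32, a pro-inflammatory cytokine, had 137, 133 and 189 CPM in HaCaT_sh+cyto, against 44.3, 37 and 45.8 CPM in HaCaT_ctrl+cyto (log2 fold change 1.93, SE 0.16, adjusted p = 8.83e-05). CSF3, the granulocyte growth factor induced by IL-17, was lower, with 3.33, 3.13 and 1.87 CPM in HaCaT_sh+cyto, against 31.6, 12.2 and 10.1 CPM in HaCaT_ctrl+cyto (log2 fold change -2.62, SE 0.45, adjusted p = 0.00351). It was not called without sh1 or sh3 (adjusted p 0.0117 to 0.0166), and the log2 fold change was -1.92 without ctrl1, whose value was the highest. IL11, a cytokine of the IL-6 family, had 5.78, 4.97 and 4.11 CPM in HaCaT_sh+cyto, against 13.8, 11.8 and 9.71 CPM in HaCaT_ctrl+cyto (log2 fold change -1.17, SE 0.18, adjusted p = 0.0023) and was not called without ctrl2 (adjusted p = 0.0126).

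Of 21 tested TNF superfamily ligands and receptors, 3 were called higher and 1 lower. CD40, a receptor through which T cells activate keratinocytes, had 10.7, 11.5 and 14.2 CPM in HaCaT_sh+cyto, against 5.47, 4.72 and 4.51 CPM in HaCaT_ctrl+cyto (log2 fold change 1.39, SE 0.17, adjusted p = 0.000728). TNFSF10, the death ligand TRAIL, had 20.5, 16.7 and 40.7 CPM in HaCaT_sh+cyto, against 5.28, 3.79 and 6.12 CPM in HaCaT_ctrl+cyto (log2 fold change 2.44, SE 0.35, adjusted p = 0.0014) and was not called without ctrl2 (adjusted p = 0.0109), with sh3 well above the other libraries. TNFRSF10D, its decoy receptor, is described above. TNFSF15, a costimulator of T cells, was lower, with 5.54, 4.74 and 4.42 CPM in HaCaT_sh+cyto, against 12.5, 13.9 and 14.6 CPM in HaCaT_ctrl+cyto (log2 fold change -1.39, SE 0.14, adjusted p = 0.000274). Among 17 receptors and adaptors of the added cytokines only IL17RD, an inhibitory relative of the IL-17 receptor, was called, with 4.14, 5.35 and 4.86 CPM in HaCaT_sh+cyto, against 1.90, 1.18 and 1.16 CPM in HaCaT_ctrl+cyto (log2 fold change 1.83, SE 0.25, adjusted p = 0.00103). Of 24 tested NF-κB subunits and feedback inhibitors, edgeR, DESeq2 and limma-voom each called 0, with 3 higher and 5 lower at an unadjusted p below 0.05, and 1 was called lower without sh1, ctrl2 or ctrl3 and 1 higher without ctrl1.

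Checkpoint and innate-sensing lists each held calls in both directions. Of 26 tested T-cell ligands and checkpoints, 12 were higher and 1 lower at an unadjusted p below 0.05, with a median log2 fold change of 0.21. VTCN1, the inhibitory B7-H4 ligand, had 8.58, 9.10 and 7.53 CPM in HaCaT_sh+cyto, against 3.75, 4.10 and 3.76 CPM in HaCaT_ctrl+cyto (log2 fold change 1.19, SE 0.15, adjusted p = 0.000702). ULBP1, a stress ligand of NKG2D, was lower, with 2.92, 3.36 and 2.55 CPM in HaCaT_sh+cyto, against 4.54, 8.45 and 10.3 CPM in HaCaT_ctrl+cyto (log2 fold change -1.32, SE 0.28, adjusted p = 0.00898), and was not called without sh1, sh2, sh3, ctrl2 or ctrl3 (adjusted p 0.0182 to 0.0387). Of 16 Toll-like receptor pathway genes, TLR1 and TLR4 were called higher and IRAK2, a kinase downstream of the receptors, lower, with a median log2 fold change of -0.34. At an unadjusted p below 0.05, 2 of the 16 were higher and 8 lower. IRAK2 had 4.55, 5.05 and 4.30 CPM in HaCaT_sh+cyto, against 17.3, 11.6 and 12.8 CPM in HaCaT_ctrl+cyto (log2 fold change -1.51, SE 0.19, adjusted p = 0.000728). TLR4 had 5.54, 3.82 and 6.35 CPM in HaCaT_sh+cyto, against 2.52, 1.86 and 1.91 CPM in HaCaT_ctrl+cyto (log2 fold change 1.41, SE 0.25, adjusted p = 0.0039) and was not called without sh1, sh3, ctrl2 or ctrl3 (adjusted p 0.0129 to 0.0245). TLR1 had 1.34, 1.38 and 2.93 CPM in HaCaT_sh+cyto, against 0.369, 0.559 and 0.520 CPM in HaCaT_ctrl+cyto (log2 fold change 2.04, SE 0.42, adjusted p = 0.00759) and was not called without sh1, sh3, ctrl1, ctrl2 or ctrl3 (adjusted p 0.0108 to 0.0308). The groups did not overlap in any of these 5 genes, as in 16.6% of all tested genes with higher and 29.0% with lower values. Of 16 tested complement genes, none was called by edgeR, DESeq2 or limma-voom, with 4 higher and 3 lower at an unadjusted p below 0.05.

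Cell-cycle genes leaned lower in the hairpin line, with few passing 2-fold. Of 41 tested DNA replication genes, 24 were lower at an unadjusted p below 0.05, the median log2 fold change was -0.34, and 3 were called, beside 1.63% of all genes called lower. MCM10, a replication initiation factor, had 3.73, 5.58 and 4.86 CPM in HaCaT_sh+cyto, against 7.31, 13.4 and 13.6 CPM in HaCaT_ctrl+cyto (log2 fold change -1.20, SE 0.25, adjusted p = 0.00779) and was not called without sh1, sh2, sh3, ctrl2 or ctrl3 (adjusted p 0.0133 to 0.0387). CDC45, a part of the replicative helicase, had 3.15, 3.82 and 4.86 CPM in HaCaT_sh+cyto, against 7.62, 8.76 and 10.5 CPM in HaCaT_ctrl+cyto (log2 fold change -1.10, SE 0.20, adjusted p = 0.00487) and was not called without sh1, sh2, ctrl2 or ctrl3 (log2 fold change -1.13 to -0.95, adjusted p 0.0161 to 0.0253).

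Of 38 tested G2/M and cytokinesis genes, 14 were lower at an unadjusted p below 0.05, the median was -0.32, and 2 were called. MKI67, the proliferation marker Ki-67, had 9.28, 12 and 11.4 CPM in HaCaT_sh+cyto, against 18.8, 24.3 and 33.7 CPM in HaCaT_ctrl+cyto (log2 fold change -1.16, SE 0.20, adjusted p = 0.00389) and was not called without sh1, sh3, ctrl2 or ctrl3 (log2 fold change -1.22 to -0.90, adjusted p 0.00736 to 0.0184). CDK1, the mitotic kinase, had 2.39, 2.75 and 2.68 CPM in HaCaT_sh+cyto, against 4.73, 6.77 and 6.24 CPM in HaCaT_ctrl+cyto (log2 fold change -1.10, SE 0.19, adjusted p = 0.00363) and was not called without sh1, sh2, ctrl2 or ctrl3 (adjusted p 0.011 to 0.0224). Both counts rested on single libraries: without ctrl1, 6 replication and 7 G2/M genes were called lower, and without sh1, ctrl2 or ctrl3 none were. Without cytokines the medians of these lists were 0.12 and 0.26, and the change between states was called for 9 replication and 6 G2/M genes, all towards lower values with cytokines.

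Cyclin-dependent kinase inhibitors of the INK4 locus were higher. CDKN2B had 84.6, 81.4 and 112 CPM in HaCaT_sh+cyto, against 42.6, 52.9 and 48.6 CPM in HaCaT_ctrl+cyto (log2 fold change 1.03, SE 0.14, adjusted p = 0.00103) and was not called without sh3 or ctrl1 (log2 fold change 0.85 to 0.96), and CDKN2A had 21.9, 21.1 and 31.2 CPM in HaCaT_sh+cyto, against 12.3, 14.2 and 11.9 CPM in HaCaT_ctrl+cyto (log2 fold change 1.04, SE 0.17, adjusted p = 0.00285) and was not called without sh3, ctrl2 or ctrl3 (log2 fold change 0.81 to 1.10, adjusted p 0.00334 to 0.0134). These were the called genes among 14 tested G1 cyclins and inhibitors. Of 24 tested p53 targets edgeR's quasi-likelihood test and limma-voom called 0, and DESeq2 and edgeR's likelihood ratio test 1 higher, with 6 higher and 3 lower at an unadjusted p below 0.05. Among 34 tested death regulators only GSDMB, a gasdermin, was called, with 20.9, 20.6 and 24.9 CPM in HaCaT_sh+cyto, against 10.7, 13.9 and 10.5 CPM in HaCaT_ctrl+cyto (log2 fold change 1.00, SE 0.14, adjusted p = 0.00143), and it was not called without sh3, ctrl1 or ctrl3 (log2 fold change 0.88 to 0.95).

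Growth factor signalling lists held few calls. HBEGF, an EGF receptor ligand released in wounds, was lower, with 113, 133 and 80.5 CPM in HaCaT_sh+cyto, against 298, 209.9 and 224 CPM in HaCaT_ctrl+cyto (log2 fold change -1.10, SE 0.18, adjusted p = 0.00271), and was not called without sh1, sh3 or ctrl1 (log2 fold change -1.12 to -0.92, adjusted p 0.00328 to 0.0109). Of 33 tested ERK targets, DUSP5, a nuclear ERK phosphatase, was called, with 229.9, 206 and 269.8 CPM in HaCaT_sh+cyto, against 135, 114 and 106 CPM in HaCaT_ctrl+cyto (log2 fold change 1.08, SE 0.13, adjusted p = 0.000728), and was not called without sh3 (log2 fold change 0.94). Of 27 p38 and JNK pathway genes, edgeR's quasi-likelihood test and limma-voom called 0, and DESeq2 and the likelihood ratio test 1 lower, with 3 higher and 6 lower at an unadjusted p below 0.05. Of 19 PI3K and AKT pathway genes, none of the 3 tools called any, with 1 higher and 6 lower at an unadjusted p below 0.05.

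Several extracellular matrix genes were higher in the hairpin line. Of 15 tested collagens 4 were called higher, with a median log2 fold change of 0.32. COL27A1, a fibrillar collagen, had 29.7, 29.4 and 36.3 CPM in HaCaT_sh+cyto, against 11.2, 10.3 and 9.94 CPM in HaCaT_ctrl+cyto (log2 fold change 1.69, SE 0.13, adjusted p = 6.07e-05). COL4A4, a basement membrane chain, had 2.33, 2.52 and 3.30 CPM in HaCaT_sh+cyto, against 0.0614, 0.124 and 0.173 CPM in HaCaT_ctrl+cyto (log2 fold change 4.49, SE 0.39, adjusted p = 0.00011). COL1A1, the main chain of type I collagen and the only fibroblast marker tested, had 6.71, 7.42 and 8.15 CPM in HaCaT_sh+cyto, against 3.50, 2.49 and 1.79 CPM in HaCaT_ctrl+cyto (log2 fold change 1.60, SE 0.24, adjusted p = 0.00171) and was not called without ctrl2 (adjusted p = 0.0134). COL5A1, which nucleates collagen fibrils, had 1.69, 2.29 and 1.43 CPM in HaCaT_sh+cyto, against 0.369, 0.249 and 0.462 CPM in HaCaT_ctrl+cyto (log2 fold change 2.35, SE 0.34, adjusted p = 0.00145) and was not called without ctrl2 (adjusted p = 0.011). The summed fibroblast markers given above were also higher in HaCaT_sh+cyto, but COL1A1 made up most of that sum in every library, so the sum adds little to the COL1A1 values. The part of fibroblast markers in these results was not tested.

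Of 31 other matrix genes, 6 were called higher, with a median of 0.31. FN1, fibronectin, which keratinocytes lay down in wounds, had 177, 152 and 171 CPM in HaCaT_sh+cyto, against 77.2, 37.1 and 36.0 CPM in HaCaT_ctrl+cyto (log2 fold change 1.81, SE 0.26, adjusted p = 0.00153). FBN2, fibrillin-2, had 5.19, 5.35 and 5.17 CPM in HaCaT_sh+cyto, against 0.553, 0.808 and 0.693 CPM in HaCaT_ctrl+cyto (log2 fold change 3.00, SE 0.22, adjusted p = 4.06e-05). LAMB1 and LAMA4, laminin chains, had 35.7, 30.3 and 44.8 CPM in HaCaT_sh+cyto, against 12.1, 15.6 and 15.4 CPM in HaCaT_ctrl+cyto and 1.23, 1.30 and 1.62 CPM in HaCaT_sh+cyto, against 0.184, 0.311 and 0.173 CPM in HaCaT_ctrl+cyto (log2 fold change 1.45, SE 0.17, adjusted p = 0.000474 for LAMB1 and log2 fold change 2.68, SE 0.36, adjusted p = 0.00109 for LAMA4). CCN1 and FBLN1, named after their values were seen, had log2 fold changes of 1.19 and 1.20. CCN1 was not called without sh3 (log2 fold change 0.97) and FBLN1 was not called without sh3, ctrl2 or ctrl3 (log2 fold change 0.92 to 1.19, adjusted p 0.00177 to 0.0168). Among matrix proteases, CTSV, a keratinocyte cathepsin, had 13.4, 12.2 and 8.53 CPM in HaCaT_sh+cyto, against 3.69, 5.03 and 3.41 CPM in HaCaT_ctrl+cyto (log2 fold change 1.57, SE 0.21, adjusted p = 0.000947), and ADAMTS9, a proteoglycanase, had 5.31, 5.58 and 6.66 CPM in HaCaT_sh+cyto, against 2.46, 0.870 and 0.867 CPM in HaCaT_ctrl+cyto (log2 fold change 2.14, SE 0.35, adjusted p = 0.00286) and was not called without sh3, ctrl2 or ctrl3 (adjusted p 0.0101 to 0.0177), with a log2 fold change of 2.83 without ctrl1.

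Adhesion genes gave calls in both directions. DSG4, a desmosomal cadherin of differentiating cells, had 45.7, 44.3 and 28.4 CPM in HaCaT_sh+cyto, against 17.5, 15.3 and 16.8 CPM in HaCaT_ctrl+cyto (log2 fold change 1.33, SE 0.16, adjusted p = 0.0007). CDH4, R-cadherin, was lower, with 58.4, 64.8 and 37.2 CPM in HaCaT_sh+cyto, against 109.9, 158 and 157 CPM in HaCaT_ctrl+cyto (log2 fold change -1.33, SE 0.19, adjusted p = 0.00134). The clustered protocadherins PCDHGA11 and PCDHGB4 were lower, with 0.175, 0.229 and 0.249 CPM in HaCaT_sh+cyto, against 1.66, 2.05 and 1.96 CPM in HaCaT_ctrl+cyto and 0.0584, 0 and 0.311 CPM in HaCaT_sh+cyto, against 2.89, 3.11 and 3.76 CPM in HaCaT_ctrl+cyto (log2 fold change -3.00 and -4.49, the last one -6.27 without sh3), and reads may have been shared within the cluster. In these 4 genes no library of HaCaT_sh+cyto overlapped the controls, as in 16.6% of all tested genes with higher and 29.0% with lower values. CDH24 had 6.24, 5.20 and 10.4 CPM in HaCaT_sh+cyto, against 2.52, 2.73 and 3.06 CPM in HaCaT_ctrl+cyto (log2 fold change 1.48, SE 0.28, adjusted p = 0.00512) and was not called without sh1, ctrl1, ctrl2 or ctrl3 (adjusted p 0.0103 to 0.0281). TJP3, a tight junction scaffold, had 20.1, 12.2 and 24.6 CPM in HaCaT_sh+cyto, against 10.3, 8.70 and 9.01 CPM in HaCaT_ctrl+cyto (log2 fold change 1.11, SE 0.24, adjusted p = 0.00916) and was not called without sh1, sh3, ctrl1, ctrl2 or ctrl3 (log2 fold change 0.86 to 1.20, adjusted p 0.0105 to 0.0451). Of 14 tested integrins, edgeR's quasi-likelihood test, DESeq2 and limma-voom each called 0 and the likelihood ratio test 1, with 3 higher at an unadjusted p below 0.05.

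Developmental regulators were also divided. MAF, a transcription factor of differentiating keratinocytes, had 11.8, 8.95 and 8.40 CPM in HaCaT_sh+cyto, against 3.38, 3.11 and 2.66 CPM in HaCaT_ctrl+cyto (log2 fold change 1.76, SE 0.19, adjusted p = 0.000361). ID3 was called higher, with 4.03, 3.13 and 5.29 CPM in HaCaT_sh+cyto, against 1.29, 1.37 and 1.85 CPM in HaCaT_ctrl+cyto (log2 fold change 1.55, SE 0.27, adjusted p = 0.00355), and its relative ID2, another inhibitor of helix-loop-helix factors, lower, with 1.40, 1.99 and 1.87 CPM in HaCaT_sh+cyto, against 4.42, 4.10 and 4.10 CPM in HaCaT_ctrl+cyto (log2 fold change -1.19, SE 0.21, adjusted p = 0.0035). These transcription factors had groups that did not overlap, as in 16.6% of all tested genes with higher and 29.0% with lower values. The 2 related inhibitors differed in opposite directions. ID3 was not called without sh1, sh3 or ctrl2 (adjusted p 0.0102 to 0.0226), and ID2 was not called without sh1, ctrl2 or ctrl3 (adjusted p 0.0108 to 0.0227). FZD8, a Wnt receptor, was lower, with 1.69, 1.30 and 0.871 CPM in HaCaT_sh+cyto, against 6.57, 6.40 and 7.86 CPM in HaCaT_ctrl+cyto (log2 fold change -2.34, SE 0.24, adjusted p = 0.000259), as was WNT5B, with 1.98, 2.14 and 2.80 CPM in HaCaT_sh+cyto, against 5.83, 5.47 and 4.74 CPM in HaCaT_ctrl+cyto (log2 fold change -1.13, SE 0.21, adjusted p = 0.00452), which was not called without sh1, sh2 or ctrl2 (adjusted p 0.0164 to 0.0278). DLL4, a Notch ligand, had 9.69, 7.65 and 7.53 CPM in HaCaT_sh+cyto, against 4.67, 2.42 and 2.02 CPM in HaCaT_ctrl+cyto (log2 fold change 1.53, SE 0.29, adjusted p = 0.00497) and was not called without sh1, sh3, ctrl2 or ctrl3 (adjusted p 0.0121 to 0.0295). These were the only calls among 26 Wnt genes (2, lower) and 16 Notch genes (1, higher), beside 1.63% of all genes called lower and 2.50% higher. At an unadjusted p below 0.05, 5 Wnt genes were higher and 8 lower, and 6 Notch genes were higher and 1 lower. FSTL1, a secreted BMP antagonist, was lower, with 9.22, 8.26 and 9.96 CPM in HaCaT_sh+cyto, against 29.5, 26.5 and 25.6 CPM in HaCaT_ctrl+cyto (log2 fold change -1.49, SE 0.13, adjusted p = 9.95e-05), and CYP26A1, which degrades retinoic acid, was lower, with 0.175, 0.0765 and 0.187 CPM in HaCaT_sh+cyto, against 1.17, 1.37 and 1.04 CPM in HaCaT_ctrl+cyto (log2 fold change -2.84, SE 0.40, adjusted p = 0.00138). Of 23 HOX genes, HOXA13 (log2 fold change 1.05) and HOXD8 (1.86) were called higher. HOXA13 was not called without any 1 of the 6 libraries (log2 fold change 0.94 to 1.11, adjusted p 0.0119 to 0.0351), and HOXD8 was not called without sh1, sh2, sh3, ctrl1 or ctrl3 (adjusted p 0.0103 to 0.0263).

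Among metabolic genes, ABCA1, the cholesterol exporter, had 7.82, 6.65 and 6.35 CPM in HaCaT_sh+cyto, against 1.11, 1.80 and 1.10 CPM in HaCaT_ctrl+cyto (log2 fold change 2.46, SE 0.22, adjusted p = 0.000132), and SCD5, a fatty acid desaturase, had 21.2, 16.2 and 16.2 CPM in HaCaT_sh+cyto, against 7.92, 7.52 and 8.26 CPM in HaCaT_ctrl+cyto (log2 fold change 1.26, SE 0.14, adjusted p = 0.00048). FABP5, the epidermal fatty acid-binding protein, had 5.25, 7.19 and 5.29 CPM in HaCaT_sh+cyto, against 2.70, 3.67 and 2.14 CPM in HaCaT_ctrl+cyto (log2 fold change 1.13, SE 0.23, adjusted p = 0.00654) and was not called without any 1 of the 6 libraries (log2 fold change 0.96 to 1.34, adjusted p 0.0119 to 0.0218). NUPR1, a stress-response regulator, had 15.6, 15.8 and 27.0 CPM in HaCaT_sh+cyto, against 2.64, 1.62 and 1.79 CPM in HaCaT_ctrl+cyto (log2 fold change 3.35, SE 0.29, adjusted p = 0.000113). The control libraries of these 4 genes all lay below those of the hairpin line, as in 16.6% of all tested genes. GSTM2, a neighbour and near-copy of GSTM3, had 4.49, 4.13 and 6.35 CPM in HaCaT_sh+cyto, against 1.04, 1.24 and 0.636 CPM in HaCaT_ctrl+cyto (log2 fold change 2.44, SE 0.29, adjusted p = 0.000599), and reads may have been shared between them. The aldo-keto reductases AKR1C2 and AKR1C3, also near-identical, were lower, with 54.4, 77.1 and 25.5 CPM in HaCaT_sh+cyto, against 129.7, 163 and 149 CPM in HaCaT_ctrl+cyto and 2.04, 1.22 and 0.498 CPM in HaCaT_sh+cyto, against 3.99, 5.72 and 4.74 CPM in HaCaT_ctrl+cyto (log2 fold change -1.43, SE 0.29, adjusted p = 0.00703 for AKR1C2 and log2 fold change -1.84, SE 0.36, adjusted p = 0.00598 for AKR1C3). AKR1C2 was not called without sh1, ctrl2 or ctrl3 (adjusted p 0.0223 to 0.0326), and AKR1C3 was not called without sh2, ctrl2 or ctrl3 (adjusted p 0.0174 to 0.0307), with a log2 fold change of -2.43 without sh1. ALDOC, a glycolytic aldolase, had 3.27, 3.21 and 4.73 CPM in HaCaT_sh+cyto, against 0.246, 1.18 and 1.16 CPM in HaCaT_ctrl+cyto (log2 fold change 2.19, SE 0.40, adjusted p = 0.00456) and was not called without sh1, sh3, ctrl2 or ctrl3 (adjusted p 0.0112 to 0.0173).

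In prostanoid metabolism, PLA2G2A, a secreted phospholipase, had 1.52, 1.53 and 2.37 CPM in HaCaT_sh+cyto, against 0, 0.311 and 0.231 CPM in HaCaT_ctrl+cyto (log2 fold change 3.35, SE 0.54, adjusted p = 0.00252) and was not called without ctrl2 or ctrl3 (adjusted p = 0.0104). PTGER4, a receptor of prostaglandin E, had 2.74, 2.22 and 2.93 CPM in HaCaT_sh+cyto, against 0.614, 1.18 and 0.809 CPM in HaCaT_ctrl+cyto (log2 fold change 1.68, SE 0.28, adjusted p = 0.00289) and was not called without sh1, sh3 or ctrl3 (adjusted p 0.0101 to 0.0142), and PTGR1, which inactivates prostaglandins and leukotriene B, had 82.8, 99.6 and 86.6 CPM in HaCaT_sh+cyto, against 39.8, 48.8 and 48.0 CPM in HaCaT_ctrl+cyto (log2 fold change 1.06, SE 0.099, adjusted p = 0.000154) and was not called without sh2 or ctrl1 (log2 fold change 0.98 to 0.99). With AKR1C3 these made up the 4 called among 11 tested prostanoid genes. RYR1, an intracellular calcium release channel, was lower, with 11.1, 11.7 and 12 CPM in HaCaT_sh+cyto, against 39.0, 42.9 and 37.7 CPM in HaCaT_ctrl+cyto (log2 fold change -1.70, SE 0.098, adjusted p = 1.61e-05), and ORAI2, a store-operated calcium channel, had 11, 12.2 and 7.53 CPM in HaCaT_sh+cyto, against 18.9, 26.0 and 19.7 CPM in HaCaT_ctrl+cyto (log2 fold change -1.001, SE 0.18, adjusted p = 0.00393) and was not called without sh1, sh3, ctrl2 or ctrl3 (log2 fold change -1.06 to -0.84, adjusted p 0.00916 to 0.0224). Of 12 tested metallothionein and zinc transport genes, edgeR's quasi-likelihood test, DESeq2 and limma-voom called 0 and the likelihood ratio test 1 lower, with 1 higher and 5 lower at an unadjusted p below 0.05. Of 13 mitochondrially encoded genes they called 0 as well and the likelihood ratio test 1 higher, with 1 higher and 2 lower at an unadjusted p below 0.05.

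To see which of these differences were also present without stimulation, the values were set beside those of separate cultures of the same lines without cytokines, libraries that the comparison with cytokines does not share. There, 1217 of 13719 tested genes were called (8.87%). In the libraries labelled HaCaT_sh 521 were higher (3.80%) and 696 were lower (5.07%). Of the 317 genes higher with cytokines, 142 were also higher without (44.8% of the first list and 27.3% of the second), 123 were tested and not called, 44 were not tested and 8 were lower. Of the 207 genes lower with cytokines, 103 were also lower without (49.8% and 14.8%), 68 were tested and not called, 34 were not tested and 2 were higher. Over the 12269 genes tested in both states, Pearson's r of the log2 fold changes was 0.673. The genes are not independent replicates, and the states share the same 2 lines.

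**Figure D3:**
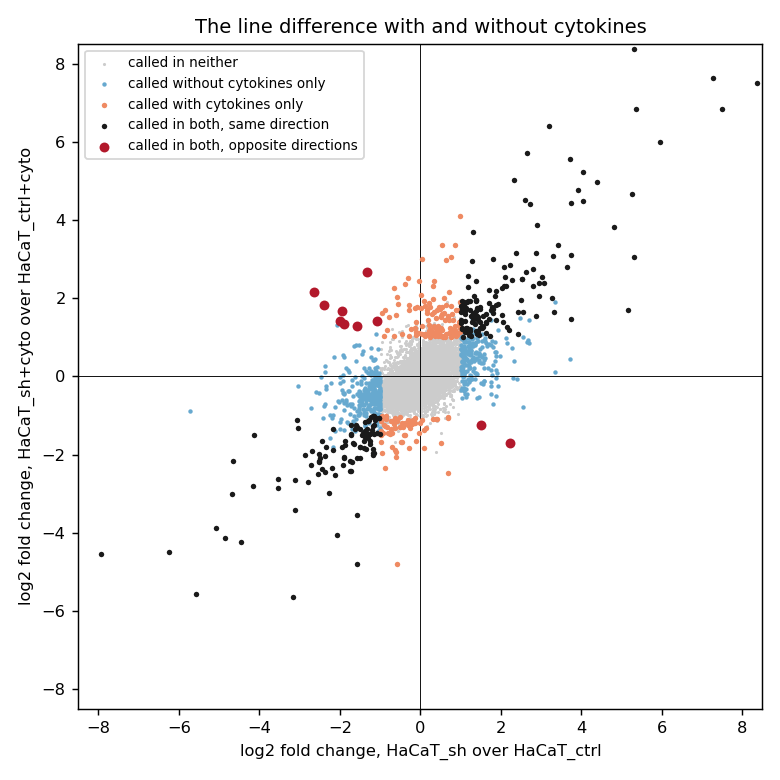
Log2 fold change of the hairpin line over the control line with cytokines (vertical) and without (horizontal), with 1 point per gene tested in both states and 4 genes beyond the axis limit of 8.5 left out. Genes called in the same direction in both states (black, 142 higher and 103 lower) outnumber the 10 called in opposite directions (large red points).

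The 10 genes called in opposite directions were DSG4, FFAR2, S100A7, S100A8, SLC6A14, SPRR3, TLR4 and WFDC21P, higher with cytokines and lower without, and KIF21B and SERPINB3, lower with cytokines and higher without. SPRR3 had 6.59, 7.42 and 5.60 CPM in HaCaT_sh+cyto, against 1.84, 0.994 and 1.73 CPM in HaCaT_ctrl+cyto, and 2.30, 3.13 and 2.08 CPM in HaCaT_sh, against 17.1, 16.1 and 15.8 CPM in HaCaT_ctrl. S100A7 had 17.3, 19.6 and 12.9 CPM in HaCaT_sh, against 43.3, 48.4 and 38.9 CPM in HaCaT_ctrl, and its level with cytokines, given above, was ordered the other way. DSG4 had 29.6, 27.4 and 15.7 CPM in HaCaT_sh, against 96.8, 96.4 and 89.1 CPM in HaCaT_ctrl without cytokines (log2 fold change -1.89, SE 0.13, adjusted p = 1.51e-08). KIF21B, a kinesin, had 7.24, 8.49 and 7.35 CPM in HaCaT_sh+cyto, against 16.5, 22.6 and 18.5 CPM in HaCaT_ctrl+cyto (log2 fold change -1.24, SE 0.14, adjusted p = 0.000474) and 1.47, 1.34 and 1.71 CPM in HaCaT_sh, against 0.644, 0.568 and 0.471 CPM in HaCaT_ctrl. SLC6A14, an amino acid transporter, FFAR2, a receptor of short-chain fatty acids, and the pseudogene WFDC21P had log2 fold changes of 1.41, 1.28 and 1.82 with cytokines and -2.01, -1.57 and -2.39 without. With cytokines SLC6A14 was not called without sh1, sh2, sh3, ctrl2 or ctrl3 (adjusted p 0.0125 to 0.0379), FFAR2 was not called without sh1, sh3, ctrl2 or ctrl3 (adjusted p 0.0226 to 0.0445) and WFDC21P was not called without ctrl2 (adjusted p = 0.0127). S100A8 and TLR4 also lost the call without single libraries, as given above.

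Whether the line difference itself changed with cytokines was tested as an interaction in 1 model of the 12 libraries. Of 13296 genes tested, 349 were called (2.62%), 186 with a line difference more positive with cytokines (1.40%) and 163 with one more negative (1.23%). Of the 477 genes called with cytokines that entered this test, 95 were called, 68 more positive and 27 more negative. The smallest p was that of SERPINB3, with 63.7, 66.1 and 59.9 CPM in HaCaT_sh+cyto, against 226, 187 and 238 CPM in HaCaT_ctrl+cyto, and 66.8, 88.3 and 77.7 CPM in HaCaT_sh, against 18.0, 18.0 and 15.8 CPM in HaCaT_ctrl (difference of log2 fold changes -3.94, SE 0.16, adjusted p = 3.48e-09 for the interaction). SPRR3, given above, followed (difference of log2 fold changes 4.81, SE 0.27, adjusted p = 1.51e-07). IVL had 256, 276 and 223 CPM in HaCaT_sh, against 535, 523 and 461 CPM in HaCaT_ctrl without cytokines, and its order between the lines was reversed with cytokines (difference of log2 fold changes 2.58, SE 0.17, adjusted p = 9.12e-07).

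ITPRIP, a modulator of inositol trisphosphate receptors, had 139, 143 and 136 CPM in HaCaT_sh+cyto, against 266, 276 and 274 CPM in HaCaT_ctrl+cyto, and 60.7, 65.5 and 68.7 CPM in HaCaT_sh, against 53.4, 54.9 and 55.7 CPM in HaCaT_ctrl (difference of log2 fold changes -1.20, SE 0.084, adjusted p = 1.6e-06). THBD, thrombomodulin, had 299, 279 and 246 CPM in HaCaT_sh+cyto, against 449, 403 and 402 CPM in HaCaT_ctrl+cyto, and 159, 169.7 and 211 CPM in HaCaT_sh, against 70.6, 69.3 and 64.5 CPM in HaCaT_ctrl (difference of log2 fold changes -2.00, SE 0.15, adjusted p = 2.2e-06). CYP1B1, a monooxygenase induced through the aryl hydrocarbon receptor, had 23.2, 24.2 and 20.7 CPM in HaCaT_sh+cyto, against 57.9, 89.3 and 88.0 CPM in HaCaT_ctrl+cyto, and 212, 228 and 243 CPM in HaCaT_sh, against 166, 172 and 159.9 CPM in HaCaT_ctrl (difference of log2 fold changes -2.23, SE 0.17, adjusted p = 3.46e-06). CMYA5, a muscle-type scaffold protein, had 1.63, 2.75 and 2.49 CPM in HaCaT_sh+cyto, against 4.91, 4.41 and 4.04 CPM in HaCaT_ctrl+cyto, and 0.295, 0.128 and 0.122 CPM in HaCaT_sh, against 11.2, 10.3 and 10.5 CPM in HaCaT_ctrl (difference of log2 fold changes 4.84, SE 0.38, adjusted p = 4.18e-06). S100A7 was also among the 8 (difference of log2 fold changes 3.99, SE 0.32, adjusted p = 4.18e-06). With cytokines alone, CMYA5, ITPRIP and THBD had log2 fold changes of -0.89, -0.89 and -0.53, under 2-fold, and were not called.

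**Figure D4:**
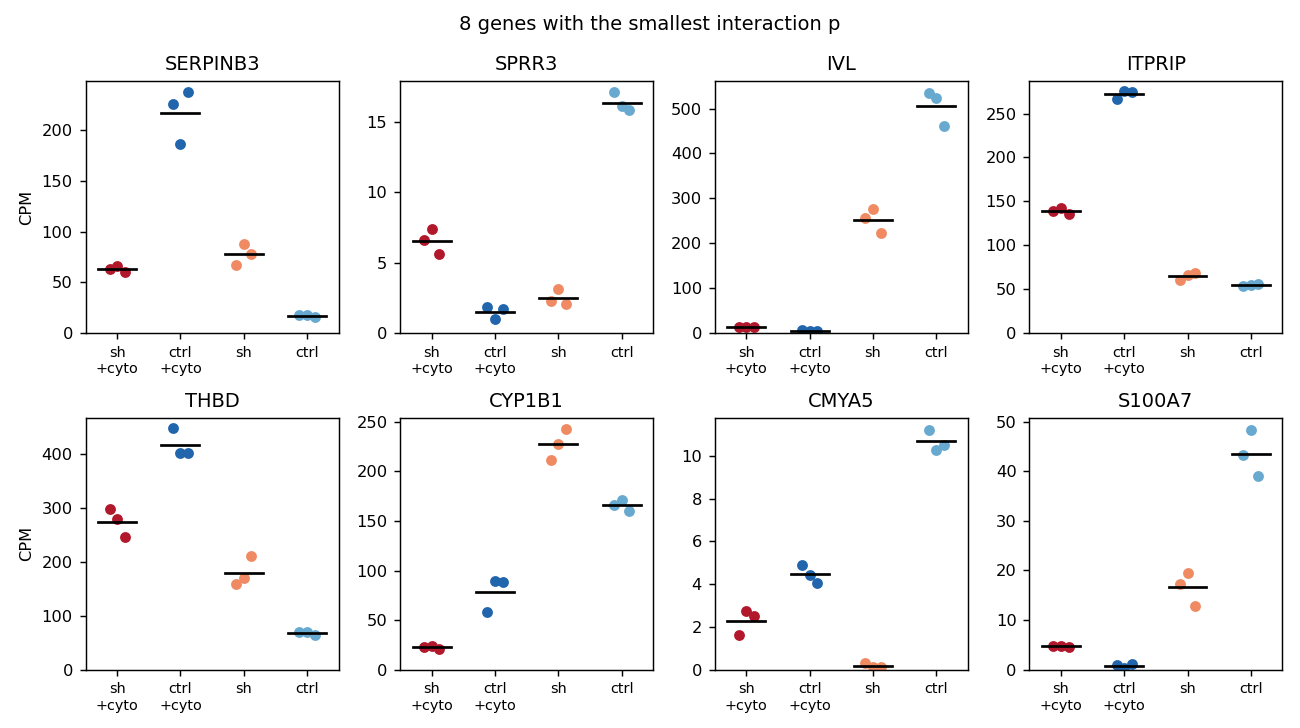
CPM of the 8 genes with the smallest interaction p, in HaCaT_sh+cyto, HaCaT_ctrl+cyto, HaCaT_sh and HaCaT_ctrl, with 1 point per library and a black bar at the mean of 3. The order of the lines with cytokines is the reverse of that without in SERPINB3, SPRR3, IVL, ITPRIP, THBD, CYP1B1 and S100A7, and CMYA5 lies lower in the hairpin line in both states.

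The line difference also varied with chromosome, in nearly equal measure in both states. The median log2 fold change with cytokines was -0.30 on chromosome 10 (489 genes, 82.6% of them below 0), -0.28 on chromosome 7 (621 genes, 82.0% below 0), 0.25 on chromosome 14 (414 genes, 18.8% below 0) and 0.20 on chromosome 19 (863 genes, 25.0% below 0). Without cytokines the medians of these chromosomes were -0.25, -0.29, 0.24 and 0.20. In blocks of 25 neighbouring tested genes, the lowest median with cytokines was in the block from KIF5B to ZNF485 on chromosome 10 (-0.56, and -0.41 without). Without cytokines the lowest was in the block from C2CD4D-AS1 to S100A7 on chromosome 1 (-0.66, and 0.13 with). The block from AKT1S1 to CTU1 on chromosome 19, which holds the kallikreins, had medians of 0.51 with and 0.51 without. The block from UBD to ABCF1 on chromosome 6, in the class I region of the MHC, had 0.53 with and 0.077 without. MCM10, CDK1, MKI67, AKR1C2, AKR1C3, CYP26A1 and FZD8, called lower, lie on chromosome 10, as do DUSP5 and FAM171A1, called higher, and the part of the chromosome medians in single results was not tested.

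**Figure D5:**
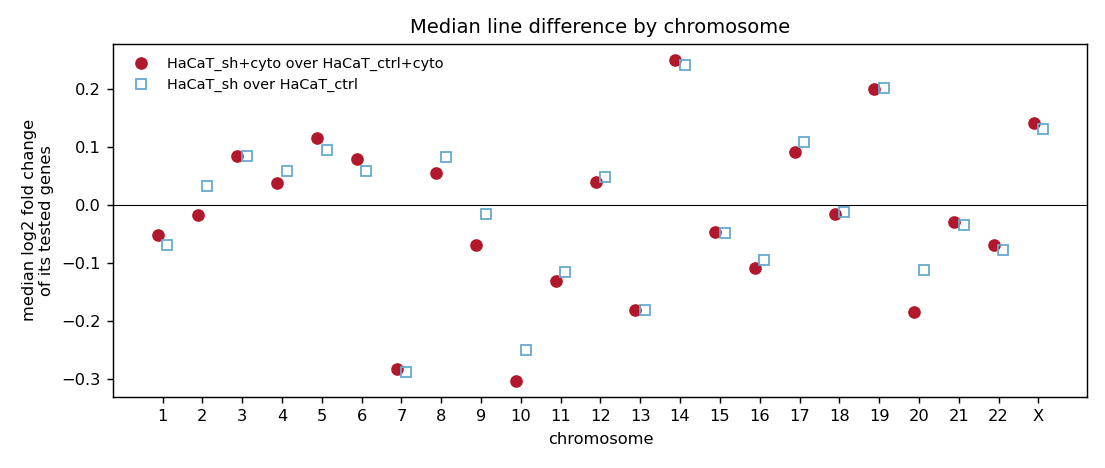
Median log2 fold change of the tested genes of each chromosome, with cytokines (filled circles, HaCaT_sh+cyto over HaCaT_ctrl+cyto) and without (open squares, HaCaT_sh over HaCaT_ctrl). Chromosomes 7 and 10 lie lowest and chromosomes 14 and 19 highest in both states.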

How the data were processed

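The deposited table held counts of reads per gene for 12 libraries of the HaCaT line, made with a strand-marking kit and sequenced in pairs. STAR mapped the reads to hg19 (Gencode annotation) after the authors had trimmed them with Cutadapt. How reads were counted per gene, with or without strand, and which versions of these tools were used is not given in the sources used here. A deposited table of rescaled values for expressed genes was not used. CPM in the text are counts scaled to a library total of 1000000, and fold changes are scaled by TMM.

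Of 57370 gene IDs, 55083 were matched to a name, 73 of them through the study's supplementary gene table, whose comparison columns were not read. Genes with at least 1 CPM in 50% of the libraries compared were fitted with edgeR 4.0.16 (quasi-likelihood test, Benjamini-Hochberg adjustment, R 4.3.3). Calls needed an adjusted p below 0.01 and a change of at least 2-fold. Each line comparison used its own 6 libraries, and the interaction used all 12. SE is the standard error of the log2 fold change.

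The genes named were IQGAP1, IQGAP2, IQGAP3, FOSL1 and S100A8, the 12 largest increases and decreases of protein-coding genes and 4 of other types (at least 5 CPM in the higher group, call kept without each library in turn, groups not overlapping), up to 4 members of each of 63 gene lists with the smallest p under the same conditions, every called member where a list had 5 or fewer, and the 8 smallest interaction p. The comparison and the lists were chosen with earlier results of these data known. Of 1614 list entries, 14 matched no gene. Some genes that the rule names are not reported here.

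Other tests (edgeR's likelihood ratio test, DESeq2 1.42.0, limma-voom 3.58.1), scalings, filters, a fit over all 12 libraries, a replicate block and leaving out each library were run as alternatives. The fits were tested on simulated data. Counting intervals and floors (3 counts over a group) cover counting error only.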

Additional observations from a re-analysis of the deposited data

Results flagged for a closer look

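The difference between the lines was itself different with and without cytokines in 349 genes, by the test of the interaction in edgeR's quasi-likelihood model over all 12 libraries. The log2 difference, HaCaT_sh+cyto against HaCaT_ctrl+cyto minus HaCaT_sh against HaCaT_ctrl, was positive in 186 of them and negative in 163. The genes named in the report for which it was called are given here with this value, and 6 more (IL1R2, IL1RL1, GBP6, CD55, C1S and RAET1G) that were added after their values were seen.

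Among genes of the upper epidermis and of keratinocyte activation the interaction was positive for the cornified envelope genes SPRR3 (4.81), IVL (2.58) and SPRR1A (1.45), for the keratins KRT16 (2.39), KRT17 (1.88) and KRT20 (3.13), for the antimicrobial S100A7 (3.99), S100A8 (3.61) and S100A9 (2.84), and for the desmosomal cadherin DSG4 (3.22). It was -3.94 for the protease inhibitor SERPINB3, and -3.33 for its near-identical neighbour SERPINB4. The mucosal keratin KRT13 was at 1.23. The cysteine protease CTSV was at 2.18 and AMTN, a protein of the enamel organ, at 3.08.

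Interferon-induced and immune genes had values of both signs. The interferon-induced OASL stood at 2.47, HERC6 at 1.17, APOL3 at 1.53 and IDO1, which breaks down tryptophan, at 1.19. The chemokine CCL22 was at 1.30 and TNFSF10, the death ligand TRAIL, at 2.11. The receptors TLR1 and TLR4 were at 2.62 and 2.50, the immunoglobulin transporter PIGR at 2.59, the phospholipase PLA2G2A at 2.50 and the T-cell inhibitory ligand VTCN1 at 2.04. Of 12 tested genes of class II antigen presentation, 6 were called, all positive, with HLA-DQA1 at 4.25, HLA-DRB5 at 2.62, HLA-DRB1 at 2.34, HLA-DRA at 2.04, HLA-DMA at 1.14 and the protease CTSS at 1.12. Reads may have been shared between the similar class II genes. In the IL-1 and IL-36 family 3 values were negative, IL1B at -2.47, IL1A at -2.34 and the IL-33 receptor IL1RL1 at -1.79, and the decoy receptor IL1R2 was at 2.20. Negative values were also found for the complement genes CD55 (-1.17) and C1S (-1.19), the guanylate-binding protein GBP6 (-1.05) and the NKG2D ligand RAET1G (-1.33).

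Replication and division genes had negative values, with CDC45 at -1.50, MCM10 at -1.19 and the mitotic kinase CDK1 at -1.41, and the kinase inhibitor CDKN2B was at 1.95. IQGAP3, the gene aimed at, was at -1.95: it was lower in HaCaT_sh+cyto than in HaCaT_ctrl+cyto and higher in the libraries labelled HaCaT_sh than in HaCaT_ctrl. The collagens COL5A1 and COL1A1 were at 2.74 and 1.31, and the microfibril protein FBN2 at 1.20.

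The signalling and transcription genes with a positive value were HOXD8 (2.43), MAF (1.74), RHOV (1.22), DUSP5 (1.05) and ID3 (1.04). Those with a negative value were the growth factor HBEGF (-1.47), ITPRIP (-1.20), the coagulation receptor THBD (-2.00) and the cytochrome CYP1B1 (-2.23). The pseudogene FKBP9P1 was at -2.25. The muscle and neuronal genes CMYA5, NEFL and CDH4 were at 4.84, 2.69 and 1.71, and the microtubule protein MAP1B at -3.21. Of genes called in opposite directions in the 2 states and not given so far, the kinesin KIF21B was at -2.73, the amino acid transporter SLC6A14 at 3.42, the fatty acid receptor FFAR2 at 2.85 and the pseudogene WFDC21P at 4.21.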

How the results depend on the processing

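The fold changes with cytokines of IQGAP3 and of the 137 other genes named and tested kept their direction under every alternative, as did the 8 interaction genes. This does not cover the medians of lists, chromosomes and blocks or the correlation between the states. Without the expression filter, 549 genes were higher and 391 lower in HaCaT_sh+cyto than in HaCaT_ctrl+cyto, and 284 had a more positive and 282 a more negative interaction, with more genes tested. Leaving out 1 library gave 196 to 331 higher and 122 to 264 lower genes with cytokines, 498 to 540 and 629 to 694 without, and 137 to 242 and 119 to 238 for the interaction. The other tests, scalings and filters, apart from leaving out the filter, gave 281 to 388 higher and 198 to 293 lower genes with cytokines. With library size alone as the scale the split was 281 higher and 258 lower. IQGAP3 passed the thresholds with the likelihood ratio test (log2 fold change -1.43), DESeq2 (-1.43), no filter (-1.44) and all 12 libraries in 1 fit (-1.45), and ranged from -1.72 to -1.27 as single libraries were left out. Same-numbered libraries deviated together in 1 of 3 pairs with cytokines (correlations -0.0746, 0.158 and -0.133), and different-numbered ones correlated at -0.248 to 0.252. Not every library correlated best with its own number. Deviations from a mean of 3 libraries balance around 0, so these values cannot settle whether the numbers pair the libraries. With the replicate block 260 genes were higher and 150 lower with cytokines, 523 and 689 without, and 178 and 147 in the interaction, and IQGAP3 was at -1.38. Of the 137 genes named and tested with cytokines, those that lost the call numbered 17 with the replicate block, 13 with library size alone, 8 with limma-voom, 2 with DESeq2 and 2 with all 12 libraries in 1 fit, and 14 to 40 without 1 library. The cause was not tested. The 8 interaction genes kept the call in every alternative. Differences under 2-fold could not be called whatever their p.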
